A study of Mus musculus with 12 samples.

Results

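The genes of the protein kinase A (PKA) subunits and of the CREB transcription factors were followed in the brainstem of neonatal mice after repeated morphine exposure. The 10 genes are those whose symbols in the count table are Prkaca, Prkacb, Prkar1a, Prkar1b, Prkar2a, Prkar2b, Creb1, Crem, Atf1 and Crtc1, out of 55418 genes in the table, taken by symbol. None of the 10 passed the test between morphine and saline mice in females, in males or in both sexes together. In males this rested on 1 library. Without saline male 3, 3 of the 10 were called, beside 28.6% of all genes. The levels of several of the 10, above all Prkar1b and Crtc1, moved from library to library along with a contrast between GC-rich and GC-poor genes. Prkar1b and Crtc1 are themselves among the GC-rich genes of that contrast. RNA was measured in 12 outbred CFW (Swiss Webster) mice at postnatal day 15 (P15): 3 saline males, 3 saline females, 3 morphine females and 3 morphine males. The morphine mice had received 15 mg/kg morphine s.c. 2 times daily from P1 to P14 and the saline mice injections of saline, and tissue was taken 16 h after the last injection. No genotype was manipulated, each mouse gave 1 library, and the litter of a mouse was not known here. The libraries are named by group and by the number in their labels, 1 to 6 within saline and within morphine.

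PKA is the main intracellular sensor of cyclic AMP. In its inactive form a pair of catalytic subunits (Prkaca encodes Cα and Prkacb encodes Cβ) is held by a pair of regulatory subunits, which are of type I (RIα from Prkar1a, RIβ from Prkar1b) or type II (RIIα from Prkar2a, RIIβ from Prkar2b). Cyclic AMP binds the regulatory subunits and frees the catalytic ones. The freed catalytic subunits then phosphorylate CREB and its relatives, which bind DNA at the cyclic AMP response element (CRE). Opioid receptors couple to inhibitory G proteins that lower cyclic AMP, and an upregulated cyclic AMP pathway during withdrawal is a classical adaptation to chronic opioids in noradrenergic neurons of the brainstem.

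Between 27850565 and 48097947 counts per library fell on genes, with a median of 33214511. The brainstem neuron markers summed to 560 to 732 CPM (counts scaled to a common library size), and the 6 Hox genes that mark thoracic to sacral spinal cord summed to 0.0295 to 0.553 CPM, with Hoxc9, Hoxc10 and Hoxa10 each at 0 counts in 11 of 12 libraries. The label of the RNA extraction names spinal cords, whereas the tissue label is brainstem. Neuron markers summed to 4259 to 5804 CPM and oligodendrocyte markers to 28363 to 51310 CPM, and in bulk tissue fewer cells of a type and less RNA per cell cannot be told apart. The library labelled morphine male 6 held 380 CPM of Xist, against 0.535 and 0.426 CPM in the other morphine males, and 12.8 CPM of the Y-linked Ddx3y, against 137 and 172 CPM. It went against its label in part, and the counts of called members and some of the values that turn on males are also given without it. Saline male 3 also stood apart: its genes differed from those of saline males 1 and 2 by a median of 0.533 and 0.570 on the log2 scale, against 0.149 to 0.292 for the other pairs of mice within a group.

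The promoters of the PKA genes were searched for the binding site of the CREB proteins themselves. The full CRE reads TGACGTCA and is its own reverse complement, and its core TGACG, which lies within every full CRE, was searched on both strands. Windows from 250 bases before to 50 bases after a transcription start came from RefSeq (GRCm38.p6), and 9 of the 10 genes had 22 such windows, because Crem had none. On average members have more windows per gene than all genes, which by itself raises the share of genes with a motif in any window. Shares are therefore given per window as well as per gene, and windows were not matched for GC content. Among the 9 genes the full CRE was found at Prkar1a only, in 2 overlapping windows that hold the same site, and over all genes it was found in 1.79% of 32851 windows and at 2.03% of 27025 genes. The window of Prkar1a at chr11:109650699-109650998 (plus strand) is shown because its start lies 49 bases after the first base of the site. The capitals mark the full CRE:
Prkar1a: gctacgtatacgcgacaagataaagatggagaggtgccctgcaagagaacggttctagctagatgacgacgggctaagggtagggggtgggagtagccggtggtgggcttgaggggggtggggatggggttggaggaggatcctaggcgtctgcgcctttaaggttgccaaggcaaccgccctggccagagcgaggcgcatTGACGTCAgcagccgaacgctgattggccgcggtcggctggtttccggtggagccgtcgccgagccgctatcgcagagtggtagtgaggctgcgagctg

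The core without a full CRE was found in windows of 5 further members. With Prkar1a, 6 of 9 member genes and 8 of 22 member windows held the core, beside 23.0% of all genes and 20.8% of all windows. The share per gene is raised by the greater number of windows of the members. Stretches of 30 bases around it are shown with the core in capitals, as read on the strand of the gene (CGTCA is the core on the opposite strand). They lie in the windows chr8:83972728-83973027 (Prkaca, plus strand), chr3:146812897-146813196 (Prkacb, minus strand), chr5:139149952-139150251 (Prkar1b, minus strand), chr9:108691893-108692192 (Prkar2a, plus strand) and chr15:100227609-100227908 (Atf1, plus strand), with first core bases at -120 and -6, -102, -49, -4 and -90 from the start:
Prkaca at -120: gtctgcaactcgCGTCActcatccaggagc
Prkaca at -6: gggctgcgggggCGTCAcggacagaggact
Prkacb at -102: ggggcttgaccgCGTCActtccggcgcgcc
Prkar1b at -49: tagagggcggagTGACGggcaggaggacga
Prkar2a at -4: cgcggccgcgtgCGTCAcaacccgggcgcc
Atf1 at -90: gtgaccacgcggTGACGcagcacgccggcg

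No window of Creb1, Crtc1 or Prkar2b held either motif. For comparison, 4 of the 16 CREB target genes with a window held a full CRE: the tyrosine hydroxylase gene Th, the granin gene Scg2, the somatostatin gene Sst and the phosphatase gene Dusp1. Their stretches are shown beside that of Prkar1a with the full CRE in capitals, from the windows chr7:142899946-142900245, chr1:79439977-79440276, chr16:23890795-23891094 and chr17:26508423-26508722, each on the minus strand:
Th at -45: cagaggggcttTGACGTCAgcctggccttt
Scg2 at -68: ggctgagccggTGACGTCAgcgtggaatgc
Sst at -48: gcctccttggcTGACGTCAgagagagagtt
Dusp1 at -143: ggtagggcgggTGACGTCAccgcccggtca
A motif in these windows is a description of the sequence and not a measurement of binding.

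Levels between genes were compared as CPM per kb of exon, with the length taken as the union of all annotated exons of a gene. The order depends on that length, and which isoforms were present was not measured. Prkar1a, which encodes the regulatory subunit RIα, had the highest transcript level of the members. It was at 206 ± 14.1 CPM per kb (SD, n = 12), above every other member in each library. Protein was not measured. The catalytic subunit gene Prkaca followed at 121 ± 14.8 CPM per kb, then Prkar1b at 93.5 ± 19.3 and Prkacb at 74.8 ± 5.74. The ranges of Prkaca and Prkar1b overlapped, and so did those of Prkar1b and Prkacb, with Prkar1b above Prkacb in 10 of 12 libraries. The type II genes were lower, Prkar2b at 19.6 ± 2.67 and Prkar2a at 16.3 ± 0.859 CPM per kb, and Prkar2b was above Prkar2a in 12 of 12 libraries although their ranges over libraries overlapped. The transcription factor Creb1 was at 5.44 ± 0.916 CPM per kb, the related Atf1 at 3.28 ± 0.313, and Crem, whose isoforms include activators and the repressor ICER, was lowest at 1.77 ± 0.237. Crtc1, a coactivator that is kept out of the nucleus until it is dephosphorylated, was at 3.42 ± 1.19 CPM per kb. On this scale Crtc1 could not be ordered against Atf1, being above it in 5 of 12 libraries. In CPM, without division by length, Crtc1 averaged 38.3 and Atf1 10.0. In the plot of levels by group, each morphine group overlaps the saline group of the same sex for each gene.

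**Figure D1:**
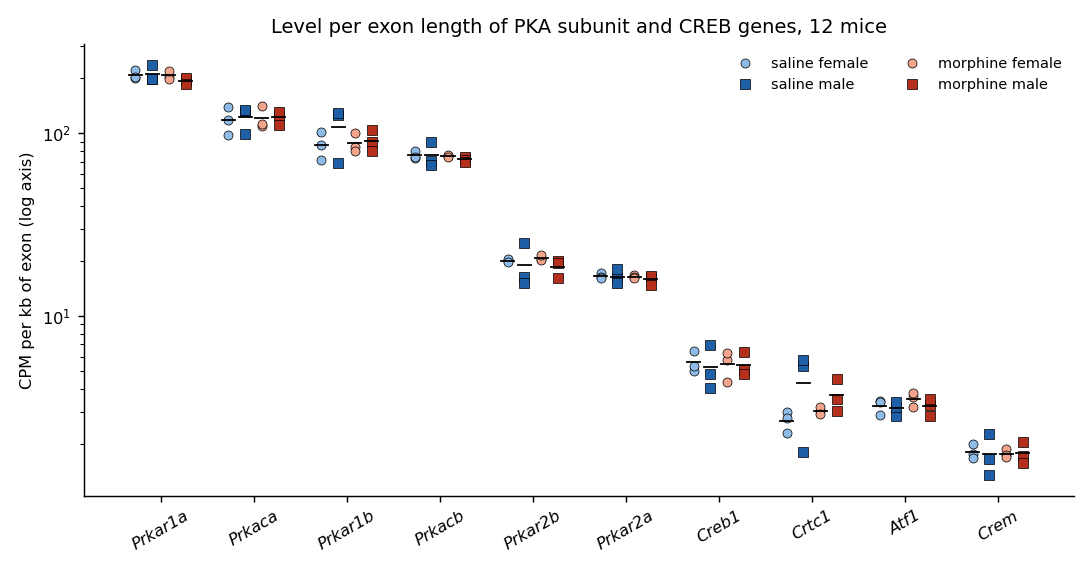
Level of each gene in CPM per kb of exon (log axis) in 12 mice, with genes ordered by mean, circles for females, squares for males, blue for saline and red for morphine, and black bars for group means. For each gene the morphine mice overlap the saline mice of the same sex, Prkar1a sits highest at 206 CPM per kb on average, and Crtc1 spreads most.

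Within the catalytic pair, Prkaca made up 61.6 ± 4.10% of the summed level per length (SD, n = 12) and Prkacb the rest. In CPM the order was reversed, with Prkaca at 301 ± 36.9 and Prkacb at 656 ± 50.3 (SD, n = 12). The exon lengths used were 2488 and 8772 bases. Among the regulatory genes, per length, Prkar1a made up 61.5 ± 3.67%, Prkar1b 27.8 ± 4.77%, Prkar2b 5.87 ± 0.845% and Prkar2a 4.89 ± 0.346%. In CPM Prkar2a, at 104 on average, was above Prkar2b, at 71.6. RIβ is known mainly from neurons and RIα from nearly all tissues. Summed over genes per exon length, type I regulatory transcripts exceeded type II transcripts by a median of 7.83-fold (range 7.12 to 10.8). On the same scale regulatory transcripts exceeded catalytic ones by a median of 1.71-fold (range 1.60 to 1.85).

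Whether repeated morphine changed these genes was asked first in both sexes together, with sex as a covariate (quasi-likelihood test of edgeR). A gene was called where its unadjusted p was under 0.05 and its absolute log2 fold change over 0.26, and the adjusted p over all genes tested is given beside it. Of the 10 members, 0 were called, 0 had an unadjusted p under 0.05, and 0 had groups that did not overlap. Over all 18608 genes tested, 1.19% were called, 0.043% had groups that did not overlap, and 0% had an adjusted p under 0.05, although 246 had an unadjusted p under 0.05. exactTest of edgeR and the Wald test of DESeq2 also called 0 members.

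The catalytic subunits differed little in their means. Prkaca ran from 244 to 346 CPM in saline mice, with a median of 312, and from 273 to 349 CPM in morphine mice, with a median of 295. Its log2 fold change was 0.03 ± 0.11 (SE; adjusted p = 1.00, edgeR), and the 95% confidence interval of the fold change was 0.869 to 1.19. Prkacb ran from 590 to 788 CPM (median 650) in saline mice and from 614 to 666 CPM (median 651) in morphine mice. The morphine mice lay within the range of the saline mice, and the interval of the fold change was 0.865 to 1.10.

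Among the regulatory subunits, Prkar1a was at 855 to 1030 CPM (median 879) in saline mice and 810 to 955 CPM (median 864) in morphine mice, with a fold change of 0.961 (95% CI 0.862 to 1.07). Prkar1b was at 262 to 492 CPM (median 356) in saline mice and 306 to 397 CPM (median 331) in morphine mice, and both the highest and the lowest mouse were saline males. Its fold change was 0.940 (95% CI 0.752 to 1.17). Prkar2a was the steadiest of the 10 genes, at 96.5 to 115 CPM (median 104) in saline and 94.1 to 108 CPM (median 104) in morphine mice, and its interval was the narrowest (fold change 0.985, 95% CI 0.891 to 1.09). Prkar2b, the type II subunit known from neurons and adipose tissue, was at 55.6 to 91.8 CPM (median 72.6) in saline and 59.3 to 79.0 CPM (median 73.8) in morphine mice (fold change 1.02, 95% CI 0.853 to 1.21).

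The transcription factors also had fold changes near 1. Creb1 was at 55.4 to 95.3 CPM (median 71.0) in saline and 59.7 to 87.7 CPM (median 74.6) in morphine mice, a fold change of 1.01 (95% CI 0.817 to 1.25). Crem was at 7.94 to 13.3 CPM (median 10.1) and 9.24 to 12.0 CPM (median 10.2), a fold change of 1.00 (95% CI 0.821 to 1.22). Atf1 had the smallest p of the 10 genes (unadjusted p = 0.414, adjusted p = 1.00, edgeR), with 8.67 to 10.5 CPM (median 10.0) in saline and 8.65 to 11.6 CPM (median 10.4) in morphine mice. Crem and Atf1 rested on 265 to 445 counts per library, so that counting error alone was 5.36% and 5.47% of a value, against a coefficient of variation over 12 libraries of 13.4% and 9.55%. The coactivator Crtc1 was at 20.1 to 64.6 CPM (median 32.0) in saline and 32.4 to 50.3 CPM (median 34.7) in morphine mice. Its fold change was 0.994, with the widest interval of the 10 genes (95% CI 0.710 to 1.39).

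**Figure D2:**
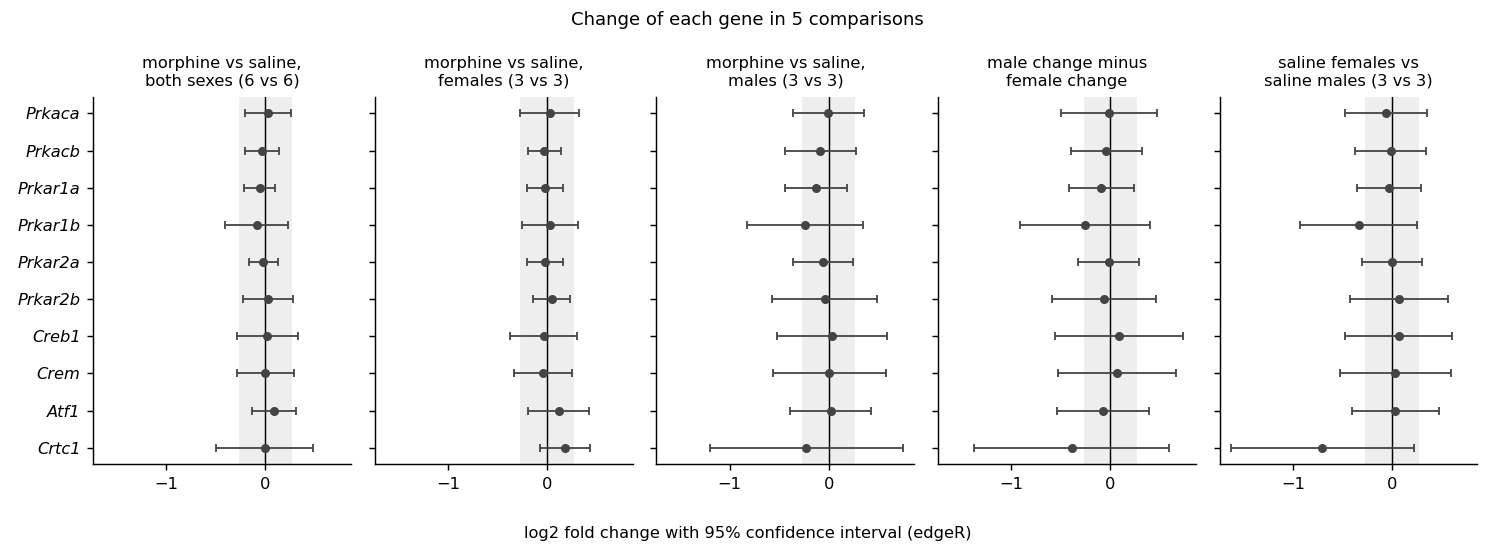
Log2 fold change of each gene (points) with its 95% confidence interval (bars) in 5 comparisons, from edgeR. The grey band spans -0.26 to 0.26, the change that a called gene had to exceed, and each interval includes 0.

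The sexes were then compared with their own controls. In females, 0 of 10 members were called, against 1.81% of 18109 genes, and 0 of 10 had groups that did not overlap, against 5.65% of all genes. No gene of the table had an adjusted p under 0.05 with edgeR (0%, with 343 genes at an unadjusted p under 0.05), while exactTest and DESeq2 each gave 3 such genes. Crtc1 had the smallest p among the members, with 33.2, 30.9 and 25.5 CPM in the saline females and 33.8, 35.6 and 32.4 CPM in the morphine females. All but 1 of the morphine females were above the highest saline female, and the log2 fold change was 0.18 ± 0.11 (SE; unadjusted p = 0.135, adjusted p = 1.00, edgeR). Over the other 9 genes the log2 fold change ran from -0.04 for Crem to 0.12 for Atf1.

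In males, 0 of 10 members were called, against 2.99% of 18166 genes, and 0 of 10 had groups that did not overlap, against 9.1% of all genes. Again 0% had an adjusted p under 0.05 with edgeR, with 543 genes at an unadjusted p under 0.05, while exactTest gave 1 such gene. Prkar1b stood at 478, 492 and 262 CPM in saline males 1, 2 and 3 and at 342, 306 and 397 CPM in morphine males 4, 5 and 6. Its log2 fold change was -0.24 ± 0.25 (SE; unadjusted p = 0.361, adjusted p = 1.00, edgeR). Crtc1 stood at 59.5, 64.6 and 20.1 CPM in the saline males and at 39.4, 33.7 and 50.3 CPM in the morphine males, a log2 fold change of -0.23 ± 0.41. For both genes all morphine males lay between saline male 3 and the other saline males.

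Without saline male 3, 3 of the 10 members were called in males: Prkar1b fell by 0.44 on the log2 scale (unadjusted p = 0.00762, adjusted p = 0.0584, edgeR), Crtc1 fell by 0.56 (adjusted p = 0.0692), and Creb1 rose by 0.32 (adjusted p = 0.161). Over all genes 28.6% were called without that mouse, so the share of members was close to that of all genes. With saline male 3 also left out and offsets for GC content and length added, Prkar1b was at -0.03, Creb1 at 0.01 and Crtc1 at -0.18 (unadjusted p = 0.0713), none of them called. Prkaca was called instead, at 0.26 (unadjusted p = 0.00208, adjusted p = 0.0337, edgeR), the 1 call among 10 members beside 18.5% of all genes. Without morphine male 6, 0 members were called, with Prkar1b at -0.36 ± 0.29 and Crtc1 at -0.41 ± 0.48 (SE).

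The difference between the sexes in the response to morphine was tested as an interaction of sex with treatment. The interaction was called for 0 of 10 members (2.94% of 19027 genes called, 0% with an adjusted p under 0.05, 559 with an unadjusted p under 0.05), and the smallest p belonged to Crtc1, whose change in males minus that in females was -0.39 ± 0.45 on the log2 scale (unadjusted p = 0.405, adjusted p = 0.985, edgeR). Without saline male 3, 2 members were called, Crtc1 at -0.78 (adjusted p = 0.0338) and Prkar1b at -0.51 (adjusted p = 0.123), beside 24.1% of all genes. With the GC and length offsets and without that mouse, Prkar1b was at 0.02 and not called, while Crtc1 was called at -0.28 (unadjusted p = 0.0415, adjusted p = 0.270, edgeR) and Prkaca at 0.31 (unadjusted p = 0.0213, adjusted p = 0.198, edgeR), beside 16.3% of all genes. Without morphine male 6, 0 members were called, with Crtc1 at -0.56 ± 0.48 and Prkar1b at -0.36 ± 0.32 (SE).

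Saline females were set against saline males to see whether the members differ by sex without morphine. Again 0 of 10 were called and 0 of 10 had groups that did not overlap (2.47% of 18122 genes called, 0.0331% or 6 genes with an adjusted p under 0.05, and 4.02% with groups that did not overlap). Crtc1 was at 33.2, 30.9 and 25.5 CPM in females and at 59.5, 64.6 and 20.1 CPM in males, a log2 fold change of -0.70 ± 0.39 (SE; unadjusted p = 0.115, adjusted p = 0.987, edgeR). Prkar1b was at 386, 327 and 273 CPM in females, with a log2 fold change of -0.34 ± 0.25. In each gene the males 1 and 2 were above the females and male 3 was below them. Without saline male 3, 4 members were called, Crtc1 at -1.07 (adjusted p = 5.70e-04), Prkar1b at -0.57 (adjusted p = 0.0110), Prkar2b at 0.34 (adjusted p = 0.0306) and Creb1 at 0.33 (adjusted p = 0.120), beside 37.3% of all genes. With the offsets and without that mouse, Prkar1b was at 0.06, Prkar2b at 0.09 and Creb1 at -0.02, none of them called. Crtc1 was called at -0.38 (unadjusted p = 0.00162, adjusted p = 0.0280, edgeR) and Prkaca at 0.32 (unadjusted p = 0.00535, adjusted p = 0.0600, edgeR), beside 18.0% of all genes. With all mice and no filter on low counts, Crtc1 was called at -0.73 (unadjusted p = 0.0355, adjusted p = 0.824, edgeR), beside 5.86% of 34908 genes.

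Ratios between members within a library do not depend on how libraries are scaled to each other. They were compared by exact permutation tests (two-sided, 21 tests), and 0 had an adjusted p under 0.05. Within a sex the smallest possible p was 0.1, so those tests could not have passed. In both sexes it was 0.005, which 1 ratio alone could not keep under 0.05 after adjustment. The count of 0 is therefore no evidence that the ratios were unchanged. The ratio of regulatory to catalytic transcripts came closest. In males its mean log2 ratio was 0.72 ± 0.06 with morphine and 0.84 ± 0.04 with saline (SD, n = 3 each), and the groups did not overlap (exact permutation p = 0.1, the smallest that 3 mice against 3 allow; adjusted p = 1.0). In females it was 0.77 ± 0.04 and 0.78 ± 0.07, and in both sexes together the difference was -0.06 (exact permutation p = 0.09, adjusted p = 1.0). Without morphine male 6 the difference in males was -0.10 (exact permutation p = 0.1, the smallest that 2 mice against 3 allow), against -0.12 with it, and without saline male 3 it was -0.10 (exact permutation p = 0.2). The ratio of Prkaca to Prkacb ranged from 1.11 in saline male 3 to 2.01 in saline male 2, and that of Prkar1a to Prkar1b from 1.53 in saline male 2 to 3.46 in saline male 3. The ratio of Crem to Creb1 was between 0.277 and 0.388 and that of Atf1 to Creb1 between 0.488 and 0.789, and their exact permutation p in both sexes was 0.855 and 0.64 (adjusted p = 1.0).

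**Figure D3:**
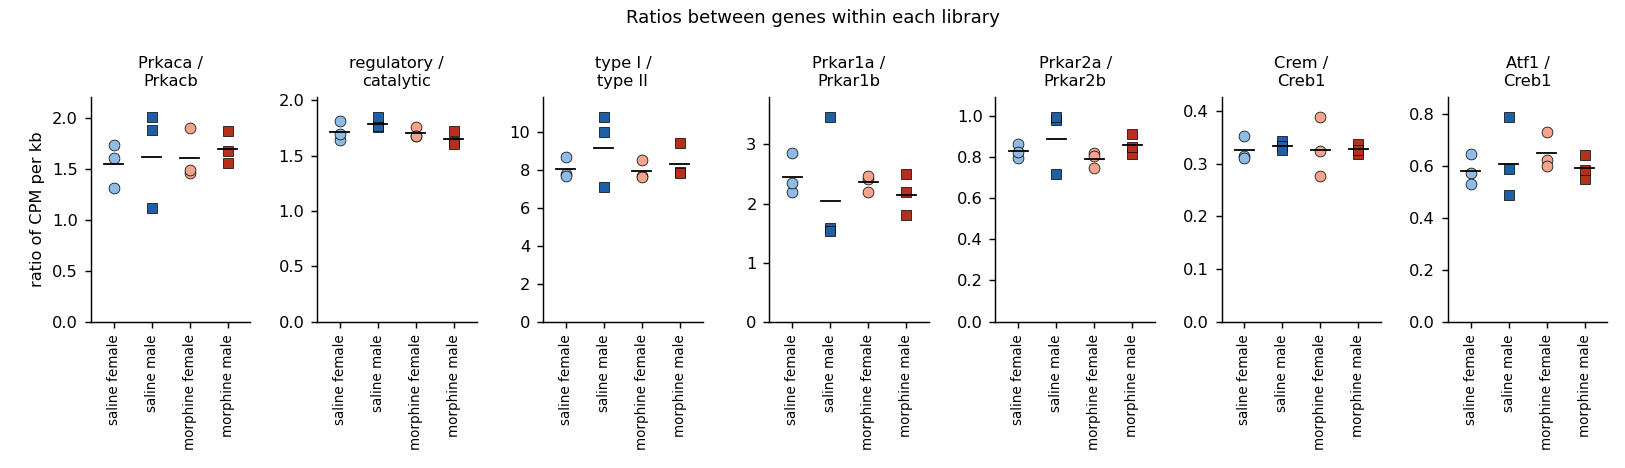
Ratios of CPM per kb between genes within each library, by group (points are mice, bars are geometric means, and the axes start at 0). Saline male 3 and saline male 2 lie at opposite ends of the ratios Prkaca to Prkacb, type I to type II, Prkar1a to Prkar1b, Prkar2a to Prkar2b and Atf1 to Creb1.

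Many pairs of members correlated from mouse to mouse. Of 45 pairs, 31 had a Pearson correlation of log2 CPM with an adjusted p under 0.05 over 12 libraries (permutation, 100000 resamples), 17 positive and 14 negative. The share of all gene pairs that correlate as closely was not computed, so the count is not shown to be particular to the members. The sign followed the GC content of the longest transcript. Crtc1 (56.5% GC), Prkar1b (55.9%) and Prkaca (54.9%) lie above 50% and the other 7 genes between 39.6% (Creb1) and 48.3% (Prkar2a), a split made after the values were seen. All 3 pairs above 50% and all 21 pairs below it correlated positively, and all 21 mixed pairs negatively. Prkar1b and Creb1 had r = -0.91 (rho = -0.96, permutation p = 5.00e-05 and 2.00e-05, adjusted p = 0.00124 and 9.00e-04), and r was -0.93 without the 2 libraries farthest from the median of Prkar1b. Creb1 and Crem had r = 0.89 (rho = 0.87, permutation p = 1.00e-04 and 5.00e-04, adjusted p = 0.00124 and 0.00562), and r = 0.78 without the 2 libraries farthest in Creb1. Prkacb and Prkar1a had r = 0.83 (rho = 0.66, permutation p = 0.00163 and 0.0227, adjusted p = 0.00564 and 0.0510), and r = 0.69 without the 2 farthest.

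The libraries themselves differed in this respect. A GC contrast was computed for each library as the mean log2 deviation of the 3722 genes with a GC content of at least 55.1% minus that of the 3723 genes with at most 43.4%. Prkar1b and Crtc1 are among these GC-rich genes, and Creb1 and Crem among the GC-poor ones. Genes of such GC content follow the contrast in part by how it is built. The share of all genes that follow it as closely was not computed. The contrast was 0.78 and 0.99 in saline males 1 and 2, -0.95 in saline male 3, and between -0.58 and 0.47 in the other 9 libraries. Prkar1b followed it with r = 0.97 (rho = 0.94, permutation p = 1e-05, the smallest that the resampling can give, and 8.00e-05; adjusted p = 1.00e-04 and 5.50e-04 over 10 genes), and still with r = 0.95 without the 2 libraries farthest from the median. Crtc1 followed it with r = 0.97 (rho = 0.80, permutation p = 3.00e-05 and 0.00250, adjusted p = 1.50e-04 and 0.00625; 0.93 without the 2 farthest), and Creb1 with r = -0.86 (rho = -0.93, permutation p = 2.70e-04 and 1.10e-04, adjusted p = 7.75e-04 and 5.50e-04; -0.71 without the 2 farthest). For Prkar1a the relation did not pass (r = -0.54, rho = -0.48, permutation p = 0.0729 and 0.115, adjusted p = 0.0729 and 0.115), and for Prkacb r went from -0.78 to -0.46 without the 2 farthest libraries. These relations were looked for after the data were seen. In 8 of 10 members saline male 3 was either the highest or the lowest of the 12 libraries. The share of all genes for which this holds was not computed, and that library stood apart over all genes, as given above.

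**Figure D4:**
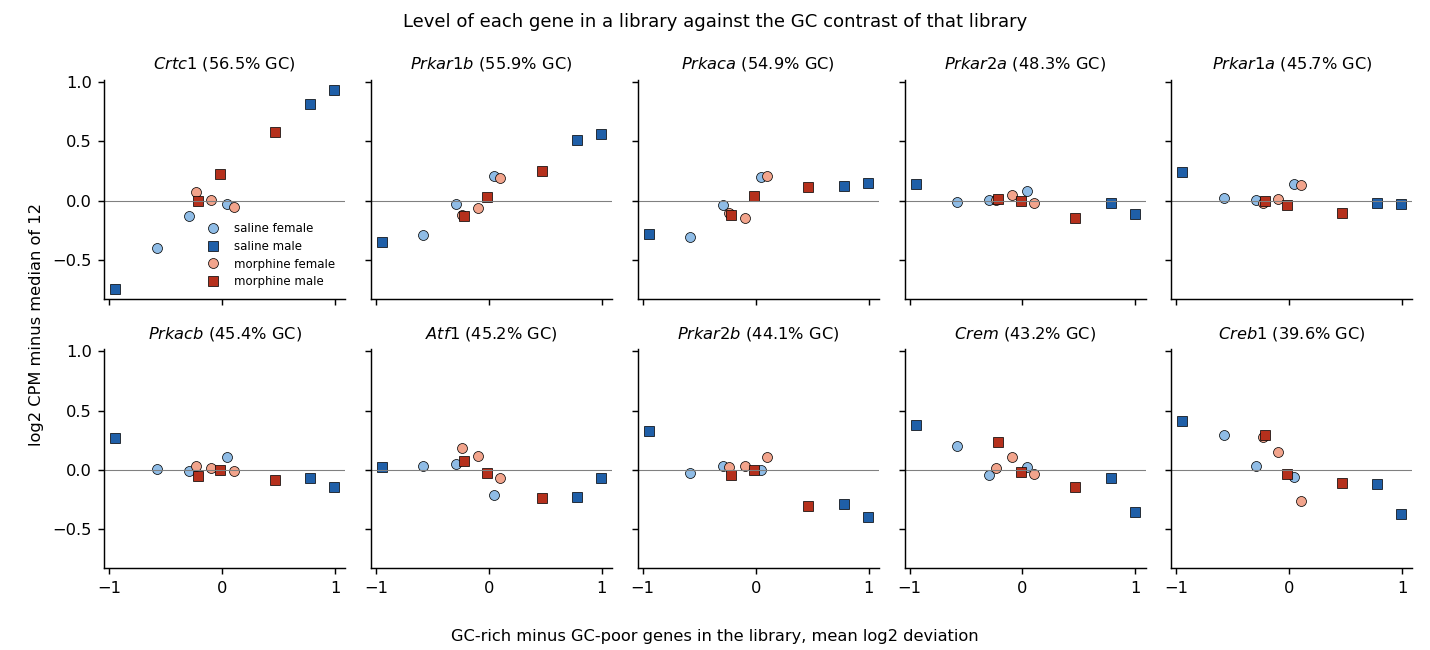
Log2 CPM of each gene minus its median over 12 libraries (vertical axis) against the GC contrast of the library (horizontal axis, mean log2 deviation of GC-rich minus GC-poor genes), with genes ordered by GC content. Crtc1, Prkar1b and Prkaca rise from left to right and the other 7 genes are flat or fall, with saline males at both ends.

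When offsets for GC content and gene length were fitted in each library, the spread of the members shrank. The SD of log2 CPM over 12 libraries went from 0.48 to 0.18 for Crtc1, from 0.29 to 0.08 for Prkar1b, from 0.24 to 0.08 for Creb1, from 0.20 to 0.09 for Prkar2b and from 0.19 to 0.09 for Crem. It changed little for Prkar2a (0.08 to 0.07), Atf1 (0.14 to 0.12) and Prkaca (0.18 to 0.14). With the offsets, 2 of 45 pairs kept an adjusted p under 0.05: Prkacb with Prkar1a (r = 0.88, rho = 0.83, adjusted p = 0.00652 and 0.0328, permutation) and Prkar1b with Atf1 (r = -0.87, rho = -0.87, adjusted p = 0.00652 and 0.0288, permutation). Such offsets take out any variation that runs along GC content, whatever its source, and what set the GC contrast of the libraries was not tested.

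**Figure D5:**
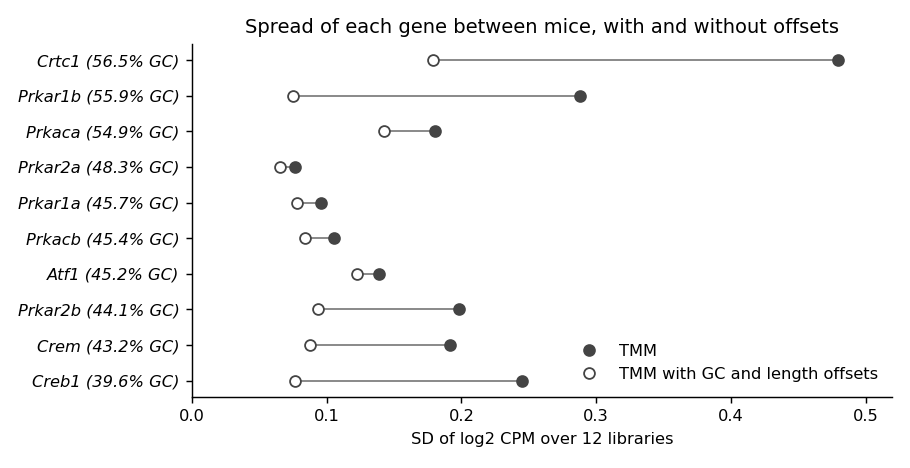
SD of log2 CPM over 12 libraries for each gene, with TMM scaling (filled) and with GC and length offsets added (open). Crtc1 goes from 0.48 to 0.18 and Prkar1b from 0.29 to 0.08, whereas Prkar2a stays under 0.08.

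The spread was also set against that of genes of similar level, and the place of most members moved with the offsets. Before the offsets, 4.36% of the 3465 genes of like level had a smaller SD than Prkar2a, 7.11% of 225 than Prkar1a, 9.07% of 364 than Prkacb and 9.80% of 3896 than Atf1. Crtc1 and Prkar1b were at the other end, with 92.3% of 4882 and 89.1% of 965 genes below them. Between these ends, Crem had 28.8% below it, Prkaca 55.5%, Prkar2b 56.8% and Creb1 75.8%. With the offsets the same shares were 11.8% for Prkar2a, 16.4% for Prkar1a, 24.5% for Prkacb, 17.2% for Atf1, 76.8% for Crtc1 and 18.5% for Prkar1b. They were 3.64% for Crem, 75.3% for Prkaca, 34.9% for Prkar2b and 19.5% for Creb1.

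The other genes of the pathway were read from 7 lists of 66 genes. In both sexes together, 65 were tested and 1 was called, beside 1.19% of all genes. It was the phosphodiesterase gene Pde4c, which fell. The cyclic AMP phosphodiesterases, which degrade the messenger, had 1 of 15 genes called and a median log2 fold change of -0.01, beside -0.02 over all genes. Pde4c was scarce, with 8 to 41 counts per library. In females it was at 0.379, 0.912 and 0.821 CPM with saline and at 0.338, 0.317 and 0.294 CPM with morphine. The groups did not overlap, which held for 5.65% of all genes tested in females. The log2 fold change was -1.15 ± 0.44 (SE; unadjusted p = 0.0250, adjusted p = 1.00, edgeR). In both sexes it was -0.78 ± 0.32 (unadjusted p = 0.0322, adjusted p = 1.00, edgeR), with overlapping groups.

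The remaining 6 lists had 0 genes called in the comparisons of morphine with saline, in either direction, in both sexes, females or males. They were the PKA inhibitor peptides with the PKA-like kinase Prkx (4 genes, median log2 fold change -0.02 in both sexes), the A-kinase anchoring proteins, which tether PKA to compartments (10 of 11 tested, median 0.04), the CREB coactivators with the kinases of the CRTC proteins (7 genes, 0.04), Epac and PKA substrates (4 genes, -0.04), related bZIP factors (7 genes, -0.02) and CREB target genes (18 genes, -0.04). In males 65 of the 66 genes were tested and 0 were called. That count of 0 rested on saline male 3. Without it, 19 of the 65 genes were called in males, 9 up and 10 down, beside the 28.6% of all genes given above: 5 phosphodiesterase genes rose and 4 CREB target genes fell, and each of the other lists held 1 to 4 calls. The saline males then left, 1 and 2, had the highest GC contrasts of the 12 libraries (0.78 and 0.99). Values with GC and length offsets are not given for these pathway genes. In both sexes 3 of the 65 were called without saline male 3, all of which fell. Of the runs in both sexes with 1 mouse left out, that run called the most genes of the table.

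The CREB target list held 1 call in the interaction and 1 between the saline sexes, beside 2.94% and 2.47% of all genes. Sst, which carries the full CRE shown above, was at 43.6, 54.4 and 23.0 CPM in saline males and 24.6, 21.1 and 29.9 CPM in morphine males, and at 29.4, 28.7 and 20.7 CPM in saline females and 28.1, 24.7 and 36.0 CPM in morphine females. Its change in males minus that in females was -0.83 ± 0.38 on the log2 scale (unadjusted p = 0.04996, adjusted p = 0.985, edgeR). Junb, an immediate early gene, was lower in saline females (1.37, 0.547 and 0.764 CPM) than in saline males (3.67, 4.62 and 0.582 CPM), with a log2 fold change of -1.74 ± 0.70 (unadjusted p = 0.0403, adjusted p = 0.987, edgeR). In Sst and Junb alike, saline males 1 and 2 were the highest of the 12 mice, and saline male 3 was far below them. Both genes, at 56.0% and 62.6% GC, are among the GC-rich genes of the contrast. That contrast was 0.78, 0.99 and -0.95 in saline males 1, 2 and 3. The part of GC content in these 2 calls was not tested. Without saline male 3, 13 of the 65 pathway genes were called in the interaction and 32 between the saline sexes, beside 24.1% and 37.3% of all genes. Without morphine male 6, 2 of the 65 were called in the interaction.

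Some markers of other cell types were called with treatment by the same thresholds, each with an adjusted p of 1.00 (edgeR). Of the cerebellar granule cell markers, 3 of 4 rose in both sexes together and in males, and their sum ran from 24.9 to 28.2 CPM in saline males and from 36.0 to 67.4 CPM in morphine males. In both sexes 0 of the 4 were called without saline male 3. Of the choroid plexus markers 3 of 4 rose in males, with sums of 261 to 519 CPM in saline and 411 to 827 CPM in morphine males, and 4 of 4 rose without morphine male 6. In females 0 of the 4 were called, with a median log2 fold change of -0.78 and sums of 9.59 to 463 CPM in saline and 28.8 to 162 CPM in morphine mice. Of the meningeal fibroblast markers 1 of 4 fell in females and in both sexes together, and in females the sums were 101 to 142 CPM with saline and 64.0 to 114 CPM with morphine. The call in both sexes was lost without saline male 3 and without morphine male 6. Of the neuron, oligodendrocyte, astrocyte, microglia, brainstem neuron, telencephalon, cerebellar Purkinje cell and red blood cell markers, 0 were called between morphine and saline mice in females, in males or in both sexes. Without saline male 3, some of these lists held calls in males, beside 28.6% of all genes: 1 neuron, 2 oligodendrocyte, 1 astrocyte, 1 microglia and 3 red blood cell markers fell, and 2 brainstem neuron markers rose. Values with GC and length offsets are not given for these markers. In both sexes 1 neuron and 1 brainstem neuron marker fell without saline male 3, and 1 Purkinje cell marker rose without morphine male 6. Of the runs in both sexes with 1 mouse left out, that without saline male 3 called the most genes of the table. The part of these cells in the levels of the members was not tested.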

How the data were processed

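Poly-A RNA from the brainstem of 12 mice was sequenced as 100 bp single-end reads. The authors ran scruff and Trimmomatic, used STAR for alignment to mm10, and deposited the featureCounts counts per gene over exons (Ensembl GRCm38). The values are raw counts, since they are whole numbers with unequal totals. Tool versions, strand setting and treatment of reads shared between genes are not given in the sources used here. In GENCODE M21 (GRCm38), exons of Gm15672 share 8.95% of the exon length of Prkar1b on the same strand, and Gm6225 shares 8.01% of that of Crem on the opposite strand. Counts of these pairs may not be separable.

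Groups came from the sample labels. Dam is a covariate of the study but is not in the labels used here. The members and gene lists were chosen with earlier results of these data known. Counts were fitted with edgeR 4.0.16 in R 4.3.3 (TMM, filterByExpr, quasi-likelihood test, Benjamini-Hochberg over all genes tested), and the thresholds for a called gene are those of the study. Each p from edgeR reflects the spread among 3 or 6 mice in a group, or fewer where a mouse was left out. Its variance estimate also draws on the other genes. The permutation p of correlations were computed over the 12 libraries, across groups. CPM use TMM factors over 12 libraries, with a prior count of 2 for log2 values, and levels per length use the union of exons. Permutation tests used numpy in Python. Alternatives were exactTest, DESeq2 1.42.0, its size factors in edgeR, total counts, no filter, a minimum of 10 counts in each library, offsets for GC content and length by loess (span 0.5), no sex covariate, a replicate block, the contrast from all 12 mice, ratios without division by length, correlations centred on group means, and leaving out each mouse. Offsets without saline male 3, and correlations with offsets, were chosen after seeing the data. Simulated data were used to check the fits. Genes named from the pathway lists were those called, at most 6 per comparison with the smallest p. Marker lists are given as a whole, and Xist and Y-linked genes check the labels. Further marker lists were astrocytes (1617 to 2182 CPM summed), microglia (127 to 186), telencephalon (7.90 to 14.2), cerebellar Purkinje cells (74.7 to 126) and red blood cells (103 to 452). Protein sequences were not used here.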

Additional observations from a re-analysis of the deposited data

Results flagged for a closer look

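Of 34 groups of 6 mice (10 members and 7 ratios, in saline and in morphine mice), 1 held a mouse that stood apart by Dixon's criterion, where chance gives about 1 in 20. Prkar2a was at 94.1 CPM in the library labelled morphine male 6, and the nearest of the other morphine mice was at 103 CPM. The gap was 0.666 of the range of the group, above the critical value for 6 samples. This is the library with both Xist and Y-linked transcripts. Without it, the log2 fold change of Prkar2a in both sexes was 0.00 ± 0.07 (SE), and in males -0.02 ± 0.17, against -0.02 and -0.06 with it.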

How the results depend on the processing

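The count of 0 called members held in both sexes and in females under each alternative run. In males it became 3 without saline male 3 and 1 with GC and length offsets and without that mouse. In the interaction it became 2 and 2, and between the saline sexes 4 and 2, and 1 (Crtc1) with no filter on low counts. Leaving out any other mouse kept it at 0, so that the ranges over left-out mice were 0 to 3 in males, 0 to 2 in the interaction and 0 to 4 between the saline sexes. With the offsets and without saline male 3, Prkaca turned from below 0 to 0.26 in males, 0.31 in the interaction and 0.32 between the saline sexes. The cause was not tested. Of 850 values of members under an alternative, 149 changed sign, of which these 3 were called, and 15 in all were called.

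The number of called genes of the table, which sets the background, varied more. Against 221 in both sexes it was 754 with no filter and 380 with offsets and without saline male 3, and 177 to 458 with 1 mouse left out. Against 328 in females it was 1094 with no filter, 218 with the contrast from all 12 mice and 208 to 1482 with 1 mouse left out (208 without morphine female 1, 690 without morphine female 2, 1482 without saline female 4). Against 543 in males it was 985 with no filter, 1171 with offsets, 3457 with offsets and without saline male 3, and 253 to 5341 with 1 mouse left out. Against 559 in the interaction it was 1665, 1081, 3174 and 290 to 4695 in the same order. Against 448 between the saline sexes it was 826 with exactTest, 907 with DESeq2, 2047 with no filter, 1449 with the contrast from all 12 mice, 3366 with offsets and without saline male 3, and 124 to 6966 with 1 mouse left out, the highest each time in males, the interaction and the saline sexes being without saline male 3 and the lowest without morphine male 4, saline female 6 and saline male 2. In both sexes the highest was without saline male 3, and 417 and 393 were called without saline female 6 and without morphine female 3. The count also moved by over 1.5 times without saline males 1 and 2 and morphine male 5 in males, without saline male 1, saline female 4, morphine females 2 and 3 and morphine males 4 and 5 in the interaction, and without saline male 1 and saline females 5 and 6 between the saline sexes. Scaling by total counts moved the share of called genes that were higher from 51.1% to 72.7% in both sexes, from 64.3% to 91.3% in males, from 54.7% to 81.2% in the interaction and from 22.5% to 38.5% between the saline sexes, and the median change over all genes (log2) from -0.06 to 0.06 in males and from -0.03 to 0.07 in the interaction. Members were called under neither scaling.

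The count of 0 ratios with an adjusted p under 0.05 held without each mouse and without division by length. Within a sex it could not have been otherwise, given the smallest p that so few mice allow. The unadjusted exact permutation p of regulatory to catalytic transcripts in both sexes was 0.045 without saline female 4, and that of Prkar2a to Prkar2b was 0.045 without saline male 3. The count of 31 correlated pairs was 33 with total counts, 33 centred on group means and 2 with the offsets. The replicate number as a block left 0 members and 204 genes called in both sexes. Samples that share a number correlated with -0.36 to 0.18 in their deviations from the group means. These values cannot decide whether the numbers mark a pairing, since each mean rests on 3 mice and the litter is not known. The numbers were not taken as a pairing, and within a sex the groups share no number. Crem and Atf1 had the fewest counts, and their counting error was smaller than their spread over libraries.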
